A study of Mus musculus with 6 samples.

Results

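The salt-inducible kinases SIK1, SIK2 and SIK3 and the proteins that switch them on were followed at the RNA level in Ocy454 cells, a mouse osteocytic line. The members were the 8 genes of the deposited table, out of 39179 listed, whose symbol is Sik1, Sik2, Sik3, Stk11, Strada, Stradb, Cab39 or Cab39l. Stk11 encodes LKB1, Strada and Stradb encode the STRAD pseudokinases, and Cab39 and Cab39l encode the MO25 scaffolds. The rule uses symbols and no measured value.

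All libraries came from Ocy454 cells grown at 33 °C to confluency and then kept for 14 days at 37 °C, a line used as a single-cell subclone, so the samples describe 1 clone in culture. Per the labels, cells received either vehicle (PBS with 25 mM HCl, whereas the study's methods describe DMSO stocks for work in culture), 1 nM PTH (the 1-34 peptide of parathyroid hormone) or 0.5 µM YKL-05-093, a small-molecule SIK inhibitor that is also known to act on other kinases in vitro. RNA was taken after 4 h, with 2 libraries for every one of the 3 conditions. The labels do not say that the libraries came from separate cultures, so p-values measure only the spread between these libraries. The study set the inhibitor beside PTH to ask how far blocking the SIKs gives the same RNA changes as the hormone.

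LKB1 is a master kinase that works as a trimer, in which STRAD binds and activates it and MO25 locks the active shape. The trimer phosphorylates a threonine in the activation loop of each SIK and of the related AMPK family kinases, and without this mark these kinases have little activity. Active SIKs phosphorylate class IIa histone deacetylases and the CRTC coactivators of CREB, which are then held in the cytoplasm by 14-3-3 proteins, whereas PTH raises cAMP, and protein kinase A can phosphorylate SIK2 and keep it from these substrates. Sik1 is also known as a target gene of CREB.

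The stretch through which LKB1 acts on the SIKs is shown because it is what joins the 3 kinases to the trimer, and because closely related copies can share reads. Each line is 81 bases of coding sequence on the gene's own strand, 5′ to 3′, read from the GENCODE M21 transcripts of GRCm38, starting at the codons of the DFG motif of the kinase domain. The capitals mark the codon of the threonine that LKB1 phosphorylates, at bases 46 to 48.
Sik1: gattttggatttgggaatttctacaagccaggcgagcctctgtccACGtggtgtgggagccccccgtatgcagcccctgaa
Sik2: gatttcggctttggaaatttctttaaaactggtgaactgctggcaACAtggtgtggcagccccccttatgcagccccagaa
Sik3: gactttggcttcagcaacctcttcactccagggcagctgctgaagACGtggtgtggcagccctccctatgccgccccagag

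The Sik1 stretch is split over coding exons 5 and 6 (chr17:31850986-31851235, minus strand), that of Sik2 over exons 4 and 5 (chr9:50917573-50935416, minus strand) and that of Sik3 over exons 4 and 5 (chr9:46155540-46177951, plus strand). Sik1 and Sik2 share 77.8% of these bases, and Sik3 shares 71.6% with each of them. Even in this conserved part the longest identical run was 14 bases, and over whole transcripts the longest run shared by any SIK pair was 19 bases, well short of the 50-base reads. Within the MO25 pair the longest shared run was 17 bases, and within the STRAD pair 14. No 50-base stretch was thus shared between paralogs.

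Neighbouring genes on the opposite strand are a different matter. Sik2 (chr9:50892801-51009073, minus strand) shares 1429 exon bases, 15% of its exons, with Ppp2r1b on the other strand, Stk11 shares 232 with Cbarp and Cab39l shares 261 with Cdadc1. Strada shares 158 exon bases with Ccdc47 and 144 with Gm25556, a small nuclear RNA gene, both on its own strand. Libraries were directional, but whether the counting used the strand is not stated in the sources used here, so reads of these overlaps cannot be assigned with certainty. Sik1 (chr17:31844250-31855804, minus strand), Sik3 (chr9:46012820-46224194, plus strand), Stradb and Cab39 overlap no exon of another gene.

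The deposited values are RPKM, which divide the reads of a gene by its length and by the depth of the library. Comparing levels between genes therefore rests on the lengths used. These lengths, worked back from the values, differed from the merged exons of GENCODE M21. They were 3026 against 6841 bases for Cab39l and 5014 against 4580 bases for Stk11, so the order of genes by RPKM can depend on them. The library totals behind the values, worked back from the steps between values, were between 17505798 and 27983585 reads. The vehicle libraries stood further apart than the treated ones, with a median absolute difference of 0.333 between replicates on the log2(RPKM + 0.1) scale, against 0.108 for PTH and 0.103 for YKL-05-093. Of 11 osteocyte and osteoblast markers, 7 or 8 reached 0.5 RPKM in each library, with Col1a1 at 259 to 430 RPKM. Of the osteocyte markers, Sost was at 0 to 0.0519 RPKM and Fgf23 at 0 in all but 1 library, while Dmp1 had 0.376 to 1.15 RPKM and Phex 0.764 to 4.93 RPKM. Of this list 8 genes were tested, and 3 passed after PTH (adjusted p under 0.05 and over 2-fold), where 1.91% of all tested genes did. Pdpn rose from 53.1 and 71.3 to 171 and 163 RPKM (adjusted p = 0.015 from limma). Bglap rose from 6.61 and 11.5 to 27.1 and 25.3 RPKM (adjusted p = 0.029), and Sp7 fell from 46 and 45.5 to 12.2 and 11.1 RPKM (adjusted p = 0.00192). None of the list passed after YKL-05-093, and Bglap (higher) and Sp7 (lower) passed in PTH against YKL-05-093. Of 10 markers of other cell types only Cd68 (3.69 to 4.42 RPKM) and Col2a1 (0.577 to 1.71 RPKM) reached 0.5 RPKM. Their summed level was 4.62 to 4.81 RPKM in the vehicle libraries, 5.4 to 6.27 after PTH and 4.89 to 5.24 after YKL-05-093, and the defining markers Cdh5 and Myod1 were at 0 throughout. Col2a1 rose after PTH (log2 fold change 1.30, adjusted p = 0.015 from limma), and the part of these markers in the results was not tested. When genes were not filtered by level, 0 of all tested genes passed in PTH against vehicle, so the marker calls were lost there. In bulk RNA, fewer cells of a type and less RNA per cell cannot be told apart.

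In vehicle-treated cells the MO25 scaffolds had the highest RPKM of the 8 genes, and Sik2, Sik1 and Stradb the lowest. Cab39 stood at 32.6 ± 5.35 RPKM (SD, n = 2), Cab39l at 18.6 ± 0.713, Stk11 at 12.1 ± 0.769 and Strada at 6.79 ± 0.00441. Sik3 followed at 4.64 ± 0.825, then Sik2 at 1.6 ± 0.481, Sik1 at 1.45 ± 0.32 and Stradb at 0.813 ± 0.053. Of neighbours in this order, Sik2 and Sik1 had overlapping libraries and no other pair did. After either treatment the order was the same except that Sik1 stood above Sik2, and then no neighbouring pair overlapped. Among the 14264 genes that reached 0.5 RPKM in at least 2 of the 6 libraries, Cab39 in vehicle was higher than 85.9% of genes and Sik1 than 18.3%, so the 8 members span most of the range of expression. All 8 passed this filter, each with at least 81 reads in every library.

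**Figure D1:**
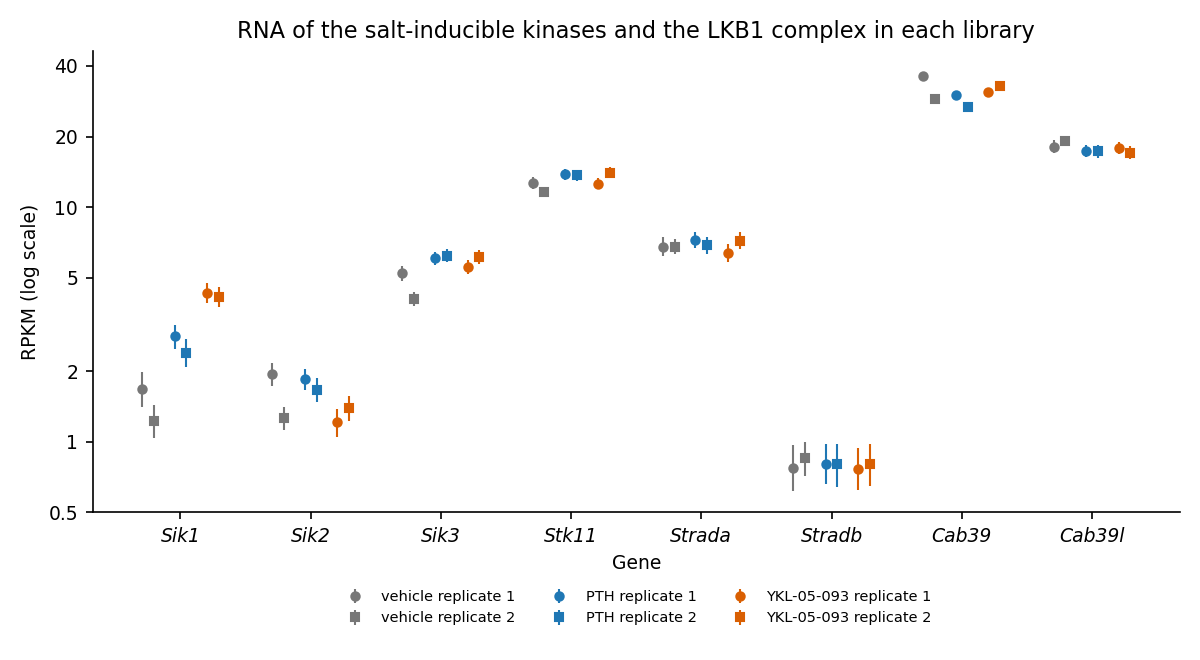
RPKM of the 8 genes (log axis) in each of the 6 libraries, with bars for the exact 95% Poisson interval of the reads, which covers counting error only. Sik1 steps up from vehicle (1.22 and 1.68) through PTH (2.4 and 2.81) to YKL-05-093 (4.14 and 4.31), while the LKB1, STRAD and MO25 genes stay within narrow bands.

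Sik1 had the largest change of the 8 genes in each of the 3 comparisons. It had 1.68 and 1.22 RPKM in the vehicle libraries (132 and 154 reads), 2.81 and 2.4 RPKM after PTH (273 and 206 reads), and 4.31 and 4.14 RPKM after YKL-05-093 (393 and 386 reads). The libraries of the 3 conditions did not overlap. YKL-05-093 raised Sik1 above vehicle by 1.49 ± 0.20 (SE) on the log2(RPKM + 0.1) scale, 2.82-fold, with a 95% confidence interval of 1.03 to 1.96 (adjusted p = 0.0323 from limma with Benjamini-Hochberg adjustment over 14255 genes). A gene was taken to have changed, here and below, at an adjusted p under 0.05 together with more than a 2-fold change. Sik1 was the 1 of 8 members that met this after YKL-05-093, where 0.645% of all tested genes did.

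The rise of Sik1 after YKL-05-093 was close to the limit of the test. The log2 fold change from limma was 1.71 without vehicle replicate 1 and 1.28 without vehicle replicate 2, so it stayed over 2-fold with either vehicle library. These fits took their spread from the YKL-05-093 libraries alone, which stood closer together than the vehicle libraries. Without YKL-05-093 replicate 1 the log2 fold change was 1.47 and the adjusted p 0.254, and without YKL-05-093 replicate 2 they were 1.52 and 0.0524. Over 14 alternatives the log2 fold change lay between 1.10 and 1.71. The lowest adjusted p (3.22e-07, limma) came with the replicate number as a block, and the numbers were not taken to pair libraries. The call was lost with the filter at 0.1 RPKM (adjusted p = 0.0524) and with no filter (0.197). It was also lost with the spread trended on the mean value (0.117) and with genes at 0 in all libraries kept (0.0616).

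After PTH the Sik1 log2 fold change was 0.81 ± 0.21 (SE), 1.76-fold, with a 95% confidence interval of 0.33 to 1.30, and it did not pass (adjusted p = 0.121 from limma). Both PTH libraries lay above both vehicle libraries. None of the 8 members met the criteria after PTH, where 1.91% of all 14261 tested genes did. Without vehicle replicate 1, Sik1 stood 1.03 above the remaining vehicle library and passed (adjusted p = 0.0024), and without vehicle replicate 2 the difference was 0.60 (adjusted p = 0.0294), which is under the 2-fold limit. Both comparisons use the same vehicle libraries and are not independent of each other.

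The treatments were also compared with each other, without the vehicle libraries. Sik1 was lower after PTH than after YKL-05-093 by 0.68 on the log2 scale (log2 fold change -0.68 ± 0.11, 95% confidence interval -0.91 to -0.45, adjusted p = 0.000537 from limma). The adjusted p was under 0.05 and the change was under 2-fold. In the same comparison 9.86% of all genes had an adjusted p under 0.05 and 1.21% also exceeded 2-fold. With 1 fit of all 6 libraries, in which the wider spread of the vehicle libraries enters, the same difference had an adjusted p of 0.195, and leaving out any 1 of the 4 libraries raised it to between 0.067 and 0.174.

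Sik2 did not pass against vehicle after either treatment. Its level was 1.94 and 1.26 RPKM in the vehicle libraries, 1.85 and 1.67 RPKM after PTH and 1.21 and 1.39 RPKM after YKL-05-093. The vehicle libraries alone spanned nearly the whole range, differing by 0.59 on the log2 scale, more than 77.8% of the filtered genes did. The log2 fold change against vehicle was 0.16 ± 0.22 after PTH (adjusted p = 0.829 from limma) and -0.25 ± 0.23 after YKL-05-093 (adjusted p = 0.853).

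Between the treatments, both PTH libraries had more Sik2 RNA than both YKL-05-093 libraries. The log2 fold change of PTH against YKL-05-093 was 0.41 ± 0.11, 1.33-fold, with a 95% confidence interval of 0.17 to 0.65 (adjusted p = 0.0311 from limma). The change was under 2-fold in all 14 alternatives, with an adjusted p under 0.05 in 4 of them, and without any 1 of the 4 libraries the adjusted p was between 0.14 and 0.377. Ppp2r1b, the gene that overlaps Sik2 on the other strand and encodes a scaffold of protein phosphatase 2A, had 6.01 and 6.09 RPKM after PTH and 5.53 and 4.69 RPKM after YKL-05-093. Ppp2r1b differed in that comparison by a log2 fold change of 0.24 (adjusted p = 0.102), and its part in the Sik2 value was not tested.

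Sik3, the most abundant of the kinases, had 5.22 and 4.05 RPKM in the vehicle libraries, 6.06 and 6.22 RPKM after PTH and 5.55 and 6.13 RPKM after YKL-05-093. Every treated library was above both vehicle libraries. The log2 fold change was 0.41 ± 0.18 after PTH (adjusted p = 0.394 from limma) and 0.34 ± 0.18 after YKL-05-093 (adjusted p = 0.734), and neither passed. Between the treatments it differed by 0.07 ± 0.08 (adjusted p = 0.665), with a 95% confidence interval of -0.09 to 0.24.

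The make-up of the SIK pool can be read within each library, where depth and scaling cancel. Sik1 held 19% and 18.7% of the summed SIK RPKM in the vehicle libraries, 26.2% and 23.3% with PTH and 38.9% and 35.5% with YKL-05-093. The share of Sik2 was 21.9% and 19.2%, then 17.2% and 16.2%, then 10.9% and 11.9%. Sik3 held between 50.2% and 62% in every library.

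Put as a ratio, Sik1 RNA was 0.866 and 0.974 times that of Sik2 in the vehicle libraries, 1.52 and 1.44 times after PTH, and 3.56 and 2.98 times after YKL-05-093. The 3 conditions did not overlap in this ratio. The summed SIK level was 8.83 and 6.53 RPKM in vehicle, 10.7 and 10.3 with PTH and 11.1 and 11.7 with YKL-05-093. Shares, ratios and sums carry no test, since an exact permutation test of 2 against 2 libraries cannot go below p = 0.333.

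**Figure D2:**
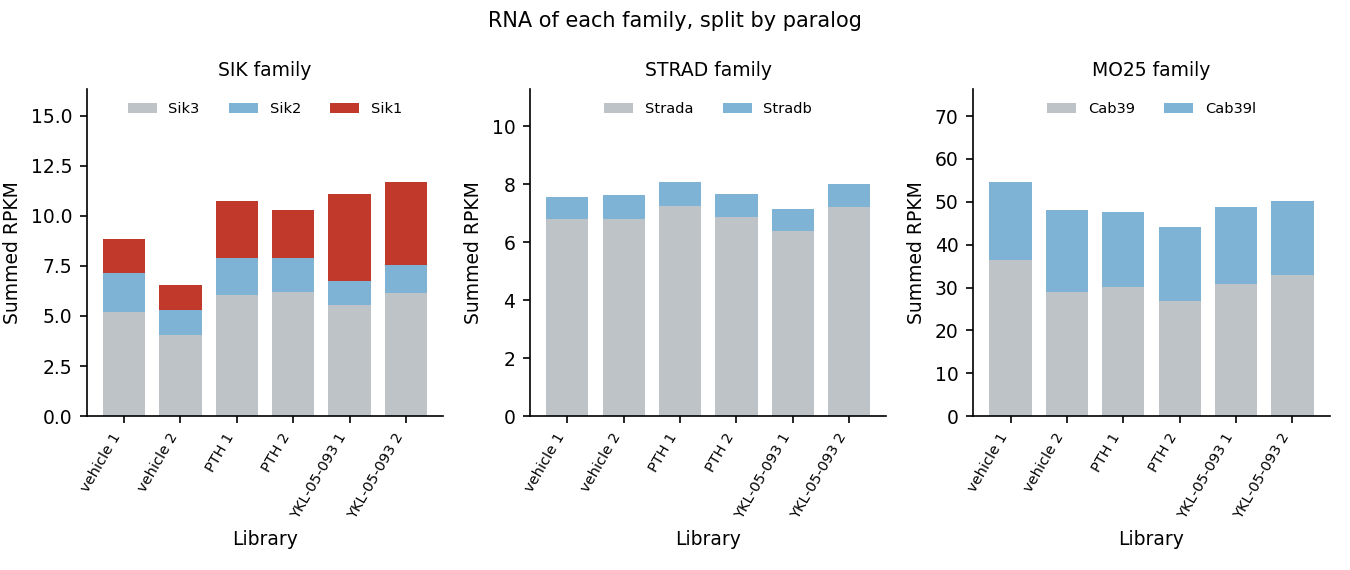
Summed RPKM of the SIK, STRAD and MO25 families in each library, stacked by paralog (bars start at 0). The Sik1 segment is 18.7% to 19% of the SIK bar in vehicle and 35.5% to 38.9% after YKL-05-093, while the split of the STRAD and MO25 bars varies little.

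Stk11, which encodes the LKB1 kinase itself, was at 12.7 and 11.6 RPKM in vehicle, 13.8 and 13.7 RPKM after PTH and 12.6 and 14 RPKM after YKL-05-093. For Stk11 the log2 fold change was 0.18 ± 0.16 after PTH (95% confidence interval -0.19 to 0.55, adjusted p = 0.717 from limma) and 0.13 ± 0.16 after YKL-05-093 (95% confidence interval -0.24 to 0.51, adjusted p = 0.888). A change of 2-fold in either direction lies outside both intervals.

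Strada, the main STRAD in these cells, had 6.79 RPKM in both vehicle libraries, 7.26 and 6.87 RPKM after PTH and 6.39 and 7.21 RPKM after YKL-05-093. The range over the YKL-05-093 libraries enclosed the vehicle values. Stradb, its paralog, had between 0.768 and 0.851 RPKM in the 6 libraries, from 81 to 142 reads. Strada RNA was 7.99 to 9.01 times that of Stradb per length, and it made up 88.9% to 90% of the STRAD RPKM in every library. Neither gene passed in any comparison, with log2 fold changes from -0.05 to 0.06.

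Cab39, which encodes MO25α, had the highest level of the 8 genes, at 36.4 and 28.9 RPKM in vehicle, 30.2 and 26.8 RPKM after PTH and 30.9 and 33 RPKM after YKL-05-093. The vehicle libraries enclosed both YKL-05-093 values. The log2 fold change was -0.19 ± 0.19 after PTH (adjusted p = 0.754 from limma) and -0.02 ± 0.18 after YKL-05-093 (adjusted p = 0.988). Cab39 lay lower in both PTH libraries than in both YKL-05-093 libraries, by 0.17 on the log2 scale (log2 fold change -0.17 ± 0.07, adjusted p = 0.184).

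Cab39l, which encodes MO25β, was at 18.1 and 19.1 RPKM in vehicle, 17.4 and 17.3 RPKM after PTH and 17.9 and 17.1 RPKM after YKL-05-093. All 4 treated libraries were below both vehicle libraries, by 0.10 ± 0.16 on the log2 scale for PTH (log2 fold change -0.10, adjusted p = 0.843 from limma) and by 0.09 ± 0.15 for YKL-05-093 (log2 fold change -0.09, adjusted p = 0.923). The MO25 pool was shared more evenly than the STRAD pool, with Cab39 at 60.1% to 66.8% of the summed RPKM.

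Across the 5 genes of the LKB1 trimer, the 95% confidence intervals of the log2 fold change against vehicle ran from -0.63 to 0.55 for PTH. For YKL-05-093 they ran from -0.49 to 0.51, so a 2-fold change lies outside all of these intervals. Smaller changes within the interval of a gene were not excluded. The median log2 fold change of the 8 members was 0.11 after PTH and -0.01 after YKL-05-093, beside -0.03 and -0.04 over all tested genes. Libraries that did not overlap were seen for 5 of 8 members in PTH against vehicle and 3 of 8 in YKL-05-093 against vehicle, where 43.1% and 37.8% of all tested genes did the same. Between the treatments it was 3 of 8 members and 50% of all genes.

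**Figure D3:**
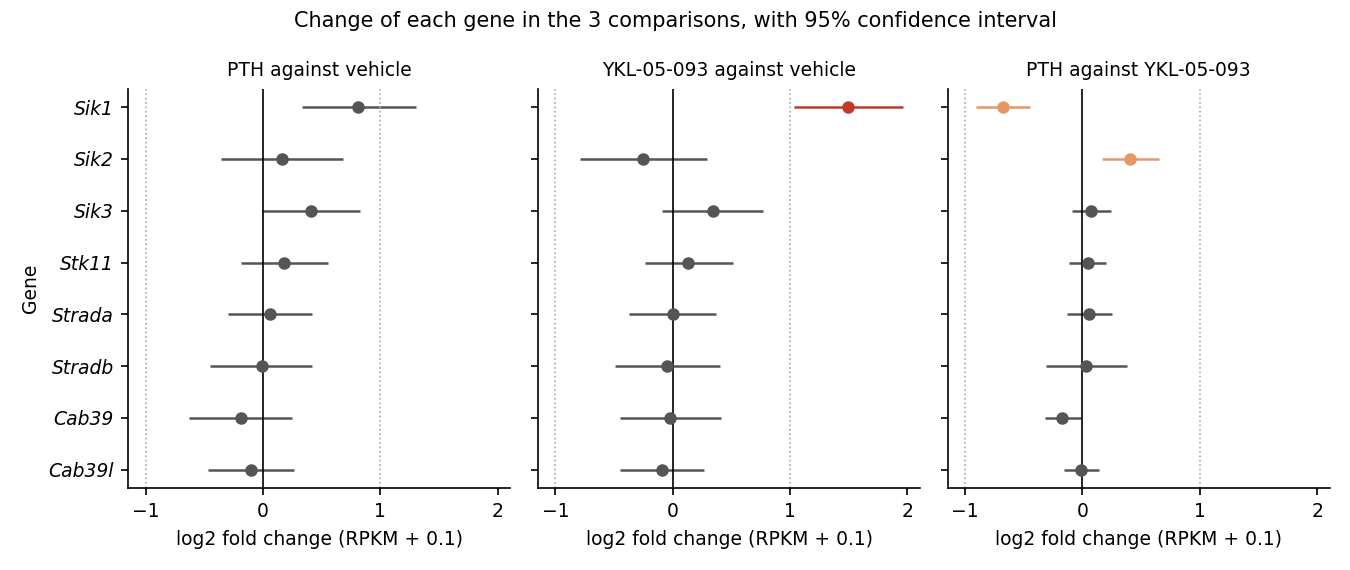
Log2 fold change of each gene on the log2(RPKM + 0.1) scale in the 3 comparisons, with limma's 95% confidence interval; dotted lines mark 2-fold, red an adjusted p under 0.05 and over 2-fold, orange an adjusted p under 0.05 alone. Sik1 is red for YKL-05-093 against vehicle (1.49), and Sik1 (-0.68) and Sik2 (0.41) are orange in PTH against YKL-05-093.

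The SIKs are 3 of the kinases that LKB1 activates, and of the other 11, 9 passed the filter and 1 changed. Of all tested genes, 1.91% changed after PTH, 0.645% after YKL-05-093 and 1.21% between the treatments. Nuak1, an AMPK-related kinase, had 33.7 and 23.7 RPKM in vehicle, 3.45 and 3.5 RPKM after PTH and 8.05 and 9.4 RPKM after YKL-05-093. It fell in both comparisons with vehicle, with log2 fold changes of -2.99 ± 0.20 (adjusted p = 0.00142 from limma) and -1.69 ± 0.21 (adjusted p = 0.0281). It was also lower after PTH than after YKL-05-093 (log2 fold change -1.30 ± 0.09, adjusted p = 9.85e-08). Without YKL-05-093 replicate 1 or 2 its adjusted p against vehicle was 0.344 or 0.0526, and without PTH replicate 1 or 2 the difference between the treatments had an adjusted p of 0.101 or 0.0802. The call against vehicle after YKL-05-093 was also lost with the spread trended on the mean value (adjusted p = 0.099), with genes at 0 in all libraries kept (0.0608) and with no filter (0.201), and that after PTH with no filter (0.0561).

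The direction of Nuak1 was thus opposite to that of Sik1 after YKL-05-093, and in vehicle Nuak1 was the second most abundant of this list. Mark3, a kinase of the MARK group, was the most abundant over the 6 libraries, at 26.5 to 34.8 RPKM, and did not pass in any comparison. The catalytic AMPK subunit Prkaa1 had 11.2 to 16.3 RPKM and likewise did not pass. The list's median log2 fold change was -0.06 after PTH and -0.20 after YKL-05-093.

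The substrates of the SIKs were represented by 4 class IIa deacetylases and 3 CRTC genes, listed under 8 identifiers because Hdac4 has 2, which may share reads. After PTH, Hdac4 rose under both identifiers, from 10.9 and 6.74 RPKM to 28.1 and 26.6 RPKM under the first (log2 fold change 1.66 ± 0.24, adjusted p = 0.0176 from limma) and by 1.72 ± 0.24 under the second (adjusted p = 0.0149). Hdac9 fell from 3.25 and 2.63 RPKM to 0.504 and 0.571 RPKM (log2 fold change -2.25 ± 0.20, adjusted p = 0.00267). The Hdac4 calls were lost without either PTH library, at adjusted p-values of 0.0794 to 0.169, with the spread trended on the mean value (0.0535 and 0.0502) and with no filter (0.149 and 0.141). The Hdac9 call was lost with no filter (0.0585).

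None of the 8 identifiers passed after YKL-05-093. Hdac4 had 18.3 and 18.5 RPKM under the first identifier (log2 fold change 1.09, adjusted p = 0.141) and Hdac9 had 0.782 and 1.2 RPKM (log2 fold change -1.50, adjusted p = 0.0594), with no overlap with vehicle in either case. Hdac9 passed without vehicle replicate 2 (adjusted p = 0.0392) and without YKL-05-093 replicate 2 (adjusted p = 0.0116), and Hdac4 without vehicle replicate 1 (adjusted p = 0.0117 and 0.0231 under its 2 identifiers). With 1 fit of all 6 libraries, Hdac9 (adjusted p = 0.0181) and Hdac4 (0.0446 and 0.0361) passed after YKL-05-093, as they did with the replicate number as a block (7.47e-07, 0.00271 and 0.000244). Hdac5, the most abundant substrate gene in vehicle, had 20.9 and 18 RPKM there, 14.4 and 13.3 RPKM after PTH and 23.6 and 23.8 RPKM after YKL-05-093. It did not pass against vehicle, and between the treatments its log2 fold change was -0.77 (adjusted p = 1.14e-06), under the 2-fold limit.

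Genes for the other partners did not pass. None of 7 genes for 14-3-3 proteins, of 4 tested STE20 family kinases that MO25 activates or of 5 genes for LKB1 chaperones and catalytic subunits of protein phosphatase 2A passed in any comparison, although 4 of these genes had an adjusted p under 0.05 between the treatments at changes under 2-fold. Ywhae led the 14-3-3 list at 88.3 to 112 RPKM. Hsp90ab1, the chaperone that holds LKB1 with Cdc37, had 563 to 628 RPKM. Stk24, at 27.5 to 34.9 RPKM, had the highest mean of the STE20 kinases, though it was not the highest in every library. The largest log2 fold change against vehicle was that of Oxsr1, a kinase of ion transport, at 12.2 and 8.46 RPKM in vehicle and 5.78 and 5.62 RPKM after PTH (log2 fold change -0.83, adjusted p = 0.116 from limma).

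Several target genes of CREB rose after both treatments. Of 11 tested identifiers, 7 rose after PTH and 7 after YKL-05-093, where 1.1% and 0.379% of all tested genes rose, and none fell. The count was 3 and 4 without PTH replicates 1 and 2, and 3 without YKL-05-093 replicate 1. With no filter on low values, 0 of all tested genes passed in either comparison with vehicle. With the spread trended on the mean value, 5 of all tested genes rose after YKL-05-093, so the 7 was not kept there. Pde4d counts under 2 identifiers in each 7, and Nr4a3 is in that of YKL-05-093. The orphan nuclear receptor gene Nr4a1 had 4.45 and 3.72 RPKM in vehicle, 9.85 and 9.75 with PTH and 33.2 and 42.6 with YKL-05-093. Rgs2, a regulator of G protein signalling, had 1.81 and 2.66, then 6.15 and 6.06, then 12.4 and 12.3 RPKM. Both rose in each comparison with vehicle and were over 2-fold lower after PTH than after YKL-05-093 (adjusted p = 3.37e-09 and 4.07e-07 from limma), with the conditions in the same order as for Sik1. Nr4a1 differed between the treatments by a log2 fold change of -1.93, and Rgs2 by just over the 2-fold limit. Rgs2 did not pass there with a pseudocount of 1 (log2 fold change -0.91) or 1 fit of all 6 libraries (adjusted p = 0.0529, limma). Its calls against vehicle were lost with the spread trended on the mean value (0.0586 after PTH, 0.0576 after YKL-05-093). With no filter, Rgs2 (0.14 and 0.141) and Nr4a1 (0.0873 and 0.135) both lost their calls against vehicle. Neither passed between the treatments, nor in PTH against vehicle, with 1 PTH library left out (adjusted p of 0.075 to 0.241).

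Some other CREB targets were ordered differently. Nr4a3 had 0.221 and 0.16 RPKM in vehicle, 0.215 and 0.268 with PTH and 1.17 and 1.48 with YKL-05-093. It passed after YKL-05-093 (log2 fold change 2.30 ± 0.24, adjusted p = 0.0174 from limma) and not after PTH (adjusted p = 0.799). Only its YKL-05-093 libraries reached 0.5 RPKM, so Nr4a3 entered the tests only through the group where it was high. In the vehicle and PTH libraries it had 25 to 33 reads. Crem had 0.89 and 1.1, then 2.92 and 2.94, then 2.13 and 1.96 RPKM, and passed after PTH (log2 fold change 1.47, adjusted p = 0.00804 from limma). Nr4a2, Fos and the cAMP phosphodiesterase gene Pde4d, under both of its identifiers, rose after each treatment, by 1.90 to 2.39 on the log2 scale after PTH. Fos and Pde4d were higher in both PTH libraries than in both YKL-05-093 libraries. Gem, the most abundant of the targets in vehicle at 8.84 and 7.7 RPKM, did not pass (log2 fold changes 0.59 and 0.71, adjusted p = 0.156 and 0.16 from limma). The order of Sik1, without overlap of the conditions, was also kept by Nr4a2, Gem and Dusp1. Nr4a2 had 0.819 and 1.05 RPKM in vehicle, 5.49 and 5.13 with PTH and 7.26 and 8.62 with YKL-05-093. Gem had 12.2 and 12.7 RPKM with PTH and 13.3 and 13.9 with YKL-05-093. Dusp1 had 2.95 and 3.38, then 5.15 and 5, then 5.66 and 6.84 RPKM, and did not pass in any comparison.

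**Figure D4:**
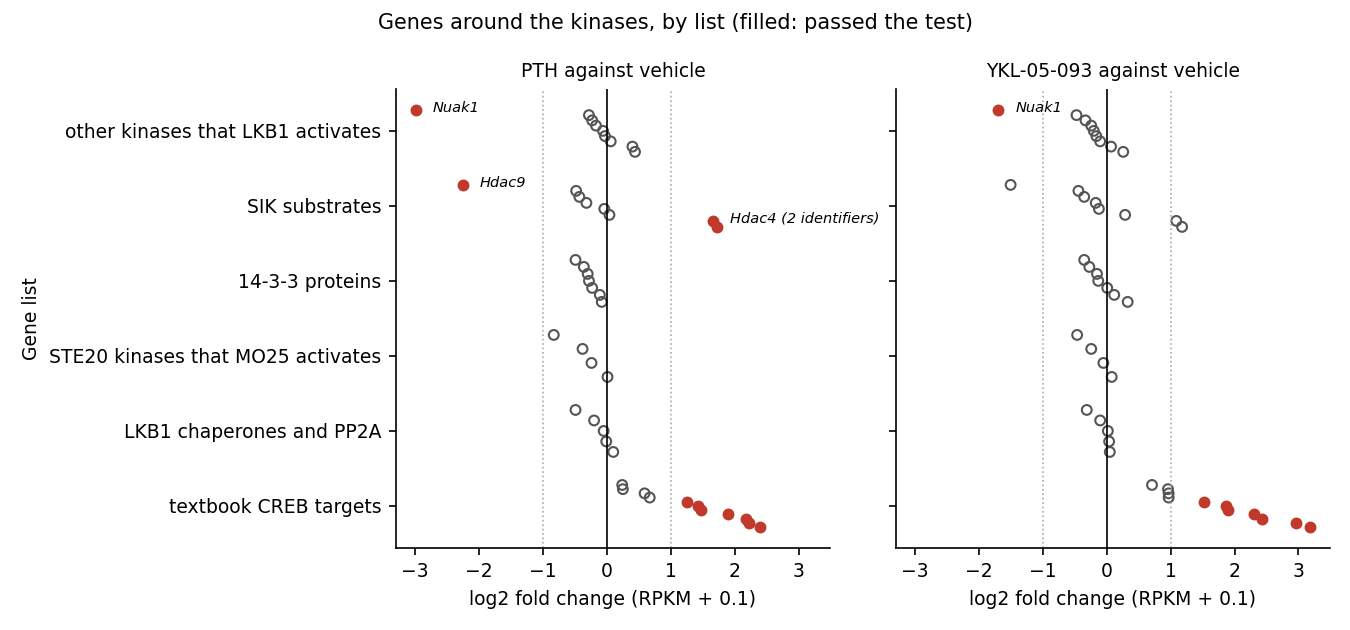
Log2 fold change of each tested gene of 6 lists, after PTH and after YKL-05-093, both against vehicle; filled points passed the test, open points did not, and dotted lines mark 2-fold. Filled points are 7 CREB target identifiers in each panel, Nuak1 in both panels, and Hdac4 and Hdac9 after PTH.

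The promoter windows, from 250 bases before to 50 bases after the start site in RefSeq, were searched on both strands for the full cAMP response element TGACGTCA and for the shorter core TGACG, which lies within it. The full element was in 0 of the 8 windows of the 7 members that have one and in 1.79% of all windows. The core was in 5 of these 8 windows (62.5%), from Cab39, Sik2, Sik3, Stk11 and Stradb, and in 20.8% of all windows. Sik1 has no window in the table used.

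The genes whose pattern over the 6 libraries was most like that of each SIK were read from 11889 others with at least 50 reads on average, by Pearson's r of log2(RPKM + 0.1). The points share libraries and conditions, and the r values only describe them. Closest to Sik1 were Dkk3 (r = 0.998), Mn1 (r = 0.995) and Ndrg1 (r = 0.994), and 176 genes exceeded 0.9. Dkk3 had 51.5 and 48.5 RPKM in vehicle, 56.9 and 55.3 with PTH and 62.8 and 61.3 with YKL-05-093. Mn1 had 6.75 and 4.93, then 9.6 and 8.97, then 15.4 and 13.4 RPKM. Both kept the order of Sik1, but r does not measure the size of a change, and that of Dkk3 was smaller. Closest to Sik2 were Dab2, Spata13 and Abcc4 (r = 0.993, 0.993 and 0.992), and closest to Sik3 were Srek1ip1, Zfp97 and Gatsl2 (r = 0.992, 0.991 and 0.990).

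For the trimer, Trpm4, Ldb1 and Wipi1 were most like Stk11 (r = 0.988, 0.987 and 0.986), and Vps26a, Sugp2 and Matn2 most like Cab39 (r = 0.999, 0.996 and 0.994). Slc25a33 and Ncbp2 followed Cab39l (r = 0.994 and 0.993), Apobec3, Vps4a and Rbmx2 followed Strada (r = 0.950, 0.947 and 0.941), and Capns1, Adrm1 and Fam120aos followed Stradb (r = 0.995, 0.992 and 0.984). No member was among the 3 closest genes of another.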

How the data were processed

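RNA was measured in 6 libraries, 2 per condition, depleted of ribosomal RNA and made with a directional kit. The authors aligned 50-base read pairs to mm10/GRCm38 (STAR), assigned them to the genes of Ensembl release 75 (HTSeq 0.6.0) and deposited linear RPKM values, without scaling between libraries. The submitters' notes also name CASAVA 1.7. The 6 tables of single libraries held the same values as the series table. How gene length was taken is not given in the sources used here.

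Whole reads were worked back from the steps of the RPKM values, for all 26214 genes above 0, within 0.0001 of a read. They served for depth, for the spread and for 1 alternative. Tests were run in R 4.3.3 with limma 3.58.1 on log2(RPKM + 0.1), which understates changes of low genes. A gene entered if 2 or more of the 6 libraries had 0.5 RPKM or more, the prior variance following the mean log2 number of reads. Each comparison used its own 4 libraries, and genes at 0 in all 4 (3, 9 and 9 genes) were left out. Benjamini-Hochberg adjustment ran over 14261 genes for PTH against vehicle and 14255 in the other comparisons. The scripts were tested on simulated data.

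The members, the gene lists and this setting of the test were chosen with earlier results of these data known, and that setting had been picked after its calls were seen. Named were all 8 members, each list gene that passed in at least 1 comparison, the most abundant gene of each list, and the 3 genes most like each member, 1 of which is not reported here. Prkaa1, Oxsr1, Gem, Dusp1 and Ppp2r1b were named after their values were seen. Mst4 is listed under an older symbol and had at most 1 read. Positions come from GENCODE M21. Poisson intervals cover counting error only, and limma's intervals the spread between libraries. Protein, RT-qPCR and animal data were not analysed here.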

Additional observations from a re-analysis of the deposited data

Results flagged for a closer look

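In 2 of the 8 genes the effects of the treatments differed from each other by a direct test, PTH against YKL-05-093, without the vehicle libraries. For Sik1 the effect of PTH was lower than that of YKL-05-093 by 0.68 on the log2 scale (log2 fold change -0.68, adjusted p = 0.000537 from limma), in 2 of 2 libraries against 2 of 2. For Sik2 it was higher by 0.41 (adjusted p = 0.0311 from limma), again without overlap of the libraries. Neither difference reached 2-fold, and 9.86% of all tested genes had an adjusted p under 0.05 in this comparison. With 1 fit of all 6 libraries the adjusted p-values were 0.195 and 0.691. With 2 libraries per condition no sample could be judged as standing apart from its group.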

How the results depend on the processing

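For YKL-05-093 against vehicle, 1 member (Sik1) passed, and 0 passed with the filter at 0.1 RPKM (adjusted p = 0.0524), with no filter (0.197), with the spread trended on the mean value (0.117), or with the genes at 0 in all libraries kept (0.0616), an alternative chosen after seeing the data. Leaving out each library gave 0 to 1. For PTH against vehicle, 0 members passed, and 0 to 1 when each library was left out (Sik1, without vehicle replicate 1). For PTH against YKL-05-093, 0 passed, and 2 (Sik1 and Sik2) with no limit on the fold change. The causes were not tested. With the replicate number as a block, 0, 1 and 0 members passed in the 3 comparisons, as without it. For Sik1 after PTH the adjusted p fell to 0.0117 with the block, still under 2-fold, and over all genes the block raised the calls from 273 to 445 and from 92 to 214 in the comparisons with vehicle. The labels do not say what a number shares, and the differences between replicates 1 and 2 correlated at -0.0336 to -0.054 between conditions across 14264 genes, so the numbers were not taken to pair libraries.

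Log2 fold changes that changed sign were all of genes that did not pass. Leaving out each library gave, for PTH against vehicle, -0.07 to 0.04 for Stradb and -0.14 to 0.45 for Sik2. For YKL-05-093 against vehicle it gave -0.10 to 0.01 for Stradb, -0.54 to 0.04 for Sik2, -0.19 to 0.15 for Cab39 and -0.09 to 0.08 for Strada. For PTH against YKL-05-093 it gave -0.03 to 0.12 for Stk11, -0.03 to 0.14 for Strada and -0.05 to 0.02 for Cab39l. With median scaling, Stradb became 0.01 in PTH against vehicle, and Cab39 and Strada became 0.03 and 0.05 in YKL-05-093 against vehicle, where voom on recovered reads gave 0.02 and 0.04. Sik1 kept its direction in all 3 comparisons under all 14 alternatives. In a fit that leaves 1 library in a group, that library is assumed to vary like the other group. Counts over all genes moved further: for YKL-05-093 against vehicle from 92 to 6 with the spread trended on the mean value, 33 with genes at 0 kept, 55 with a pseudocount of 1, 57 with the filter at 0.1 RPKM, 172 with 1 fit and 0 with no filter (1733 genes at an unadjusted p under 0.05, limma). Leaving out each library gave 56 to 698 for PTH against vehicle, 20 to 332 for YKL-05-093 against vehicle and 0 to 176 for PTH against YKL-05-093, where the 0 came without PTH replicate 1 or 2 (2146 and 2024 at an unadjusted p under 0.05, limma). Counts that differed by over 1.5 times in the other comparisons were 160 (PTH against vehicle, trend on the mean value), 0 (PTH against vehicle, no filter, with 2337 at an unadjusted p under 0.05), and 98 and 100 (PTH against YKL-05-093, pseudocount of 1 and 1 fit). Shares of reads in place of RPKM moved the Sik1 share to 11.9% to 12% in vehicle and 24.5% to 27.3% after YKL-05-093. Stradb, with 81 to 142 reads per library, has the widest counting interval relative to its level.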
